A study of Homo sapiens
Mus musculus and Homo sapiens with 21 samples.

Results

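Matrix metalloproteinases (MMPs) and their tissue inhibitors (TIMPs) were followed separately in the cancer cells and in the mouse tissue around them. Members were taken by symbol alone, as every gene named MMP or TIMP in the human table and every Mmp or Timp gene in the mouse table. Of all genes listed, this gave 23 of 34058 human genes, 20 MMPs and 3 TIMPs, and 26 of 33043 mouse genes, 22 Mmps and 4 Timps, which is 49 of 67101 genes in all. The human genes TIMP4, MMP8, MMP12 and MMP20 were not analysed here.

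The study sequenced total RNA from 21 libraries in 6 groups. All human transcripts came from 1 cell line, H2030-BrM3, a derivative of the H2030 lung adenocarcinoma line selected for growth in the brain. It was grown as a monolayer (3 libraries), as subcutaneous tumours in athymic nu/nu mice (4 libraries), or as metastases in the forebrain (3 libraries) and hindbrain (3 libraries) of athymic nu/nu mice after injection into the heart. Mice were 5 to 6 weeks old at injection, and subcutaneous cells were given in 50% growth-factor-reduced Matrigel, a basement membrane extract that is itself a substrate of several MMPs. Forebrain and hindbrain without tumours (4 libraries each) came from the same strain, and their labels carry the name of the cell line too. Athymic mice lack mature T cells, so the host tissue around every tumour lacked them as well. Tumours were cut out together with neighbouring stroma, and human and mouse reads of 1 library were assigned to the tumour and the host by genome. The labels do not say which libraries came from the same animal, so the p values below measure the spread between these libraries.

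MMPs are zinc-dependent proteases that are made as inactive proenzymes and cut collagens, laminins, proteoglycans and many cell surface proteins. Collagenases open fibrillar collagen, gelatinases cut denatured and basement membrane collagen, stromelysins and matrilysins have broad substrates, and membrane-type MMPs act at the cell surface, where MMP14 activates the gelatinase proMMP2 with the help of TIMP2. TIMPs bind the active site of MMPs, and TIMP3 stays bound to the matrix and also inhibits ADAM proteases. In the brain, MMP9 opens the basement membrane of vessels, astrocytes make TIMP1 under stress, and neurons express the membrane-type members MMP16, MMP17 and MMP24.

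In H2030-BrM3 cells the family was dominated by 2 genes. Levels of different genes were compared only after dividing reads by the length of the Ensembl canonical transcript and scaling every library to the same sum (a TPM scale, with the human genes of a library as the whole). On that per-length scale TIMP1, a secreted inhibitor, stood at 1350 ± 365 in the 6 brain metastasis libraries, and MMP14, the membrane-type collagenase MT1-MMP, at 286 ± 15.3 (mean ± SD, n = 6). TIMP2 followed at 120 ± 6.96, then the membrane-type MMP15 at 36.8 ± 5 and MMP17 at 21 ± 2.69, and the stromelysin-like MMP11 at 7.1 ± 1.94. MMP9 was at 4.03 ± 0.776 on that scale, and no other member passed 3 in brain metastases. In the monolayer MMP15 and MMP17 were close to each other, at 37.5 ± 1.27 and 34.5 ± 1.03 (n = 3), and the other steps down from TIMP1 to MMP11 were wider than the SDs in all 3 settings.

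The windows of 250 bases before the canonical start site are shown for 4 human genes on GRCh38, each 5′ to 3′ on the gene's own strand, with matches to the motifs searched in capitals. MMP14 (chr14:22836335-22836584, plus strand) and MMP15 (chr16:58025504-58025753, plus strand) are shown because they changed in the same direction between growth sites, TIMP1 (chrX:47582186-47582435, plus strand) as the most abundant member, and MMP10 (chr11:102780629-102780878, minus strand) as a secreted member of the cluster on chromosome 11.
MMP14: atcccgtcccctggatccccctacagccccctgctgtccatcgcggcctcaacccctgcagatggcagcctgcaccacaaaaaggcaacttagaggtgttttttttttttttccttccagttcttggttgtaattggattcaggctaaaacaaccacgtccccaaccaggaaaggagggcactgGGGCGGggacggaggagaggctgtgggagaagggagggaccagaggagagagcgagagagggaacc
MMP15: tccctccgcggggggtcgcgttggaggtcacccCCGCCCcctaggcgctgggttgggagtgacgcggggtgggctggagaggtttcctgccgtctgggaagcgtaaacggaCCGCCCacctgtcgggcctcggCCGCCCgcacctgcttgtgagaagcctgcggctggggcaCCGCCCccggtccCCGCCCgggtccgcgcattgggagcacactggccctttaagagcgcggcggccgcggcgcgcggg
TIMP1: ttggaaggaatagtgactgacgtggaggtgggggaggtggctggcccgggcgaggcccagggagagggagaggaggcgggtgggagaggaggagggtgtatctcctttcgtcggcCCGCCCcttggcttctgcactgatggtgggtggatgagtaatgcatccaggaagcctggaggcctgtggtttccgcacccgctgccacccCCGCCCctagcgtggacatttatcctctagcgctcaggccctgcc
MMP10: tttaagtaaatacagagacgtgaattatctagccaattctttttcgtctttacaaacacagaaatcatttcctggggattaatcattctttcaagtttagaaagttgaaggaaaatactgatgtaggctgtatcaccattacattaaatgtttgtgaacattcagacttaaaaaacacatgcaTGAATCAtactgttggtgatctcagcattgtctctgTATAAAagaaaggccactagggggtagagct
The motifs were an AP-1 site (TGANTCA), the letters TATAAA and a GC box (GGGCGG), each searched on both strands. MMP14 held 1 GC box, MMP15 held 5 and TIMP1 held 2, and none of the 3 windows held the other motifs. MMP10 held 1 AP-1 match whose first base lay 67 bases before the start and 1 TATAAA 31 bases before it, and no GC box. Among 20044 windows of protein-coding genes, 4.73% held the AP-1 letters, 9.34% TATAAA and 59.0% the GC box. Of the 23 human members, 7 held the AP-1 letters (MMP1, MMP3, MMP7, MMP9, MMP10, MMP13 and MMP19), 7 held TATAAA and 13 held the GC box. These matches describe letters in a window, not bound sites.

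Brain metastases were compared with subcutaneous tumours, the same cells at 2 growth sites. All values below are RPKM (reads per kilobase and per sequenced reads) rescaled so that every library has the same sum within its organism, on the authors' gene lengths, and are compared within 1 gene only. Of the 23 human members, 10 passed the filter (a value of at least 1 in at least 3 of the 13 libraries), and 9 of these 10 were called at an adjusted p under 0.05, 4 higher and 5 lower in brain metastases. The same comparison called 50.0% of 14557 genes, 31.2% as higher and 18.8% as lower, so calls were common among all genes here. The median log2 change of the 10 was -0.143, beside 0.055 over all genes tested. With median-of-ratios scaling the share of calls that were higher, over all genes, went from 62.4% to 49.6%, and the direction of no member flipped. In bulk tissue, fewer cells of a kind and less RNA per cell cannot be told apart, although both sides of this comparison hold 1 cell line.

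MMP15, the membrane-type protease MT2-MMP, was lower in metastases by the larger fold of the pair MMP14 and MMP15. Its levels were 50.15, 61.48, 57.64 and 58.94 in subcutaneous tumours and 30.78, 32.15, 24.83, 28.36, 24.44 and 34.61 in forebrain and hindbrain metastases. Every metastasis lay below every subcutaneous tumour. The fold was 1.93 (log2 change -0.95 ± 0.10 SE, adjusted p = 2.33e-06, limma). The metastases lay around the monolayer level of 27.77, 29.83 and 29.26, and the subcutaneous tumours above it. MMP15 and MMP14 fall outside the rule for genes given in every library, which asks for a fold of at least 2, and were added after their values were seen.

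MMP14 moved the same way. It stood at 1207, 1088, 1248 and 1262 in subcutaneous tumours and at 824.2, 851.5, 739.5, 817.9, 804.1 and 888.2 in brain metastases, again with no overlap. The fold was 1.46 (log2 change -0.55 ± 0.05 SE, adjusted p = 1.82e-06, limma). The other membrane-type member MMP17 (MT4-MMP) was at 31.6 ± 4.13 in metastases (n = 6) and 43.0 ± 6.92 in subcutaneous tumours (n = 4), 1.34-fold lower with overlapping groups (adjusted p = 0.00345, limma). MMP11, which acts on serpins and collagen VI more than on classical matrix, was at 10.2 ± 2.76 and 13.6 ± 1.67 (adjusted p = 0.0413, limma), a call that 9 of 18 alternatives lost.

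The 4 members higher in metastases were all low in level. MMP24, a membrane-type protease of neurons, was at 1.31 ± 0.201 against 0.310 ± 0.0451, MMP9 at 1.81 ± 0.356 against 0.636 ± 0.170, and MMP10 (stromelysin-2) at 1.47 ± 0.994 against 0.570 ± 0.0892. Their fitted folds of 1.76, 1.71 and 1.47 are on the log2(value + 1) scale, which understates the change of low genes. MMP24 and MMP10 passed the filter only through brain metastases, and their 6 metastasis libraries held 166 and 50 reads in all. MMP9 also needed the brain metastases to pass, as only 1 other library, of the monolayer, reached the filter value. It had 127 reads in the 6 metastases. The place of MMP24, MMP10 and MMP9 among the members tested is thus no support for their calls. The MMP10 call was lost with a pseudocount of 0.1 (adjusted p = 0.0916, limma) and without subcutaneous replicate 2 or replicate 4, while the MMP9 and MMP24 calls held in every alternative run.

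Human reads can arise from mouse RNA, and this touched MMP16 (MT3-MMP) most. Its levels were 2.551, 2.285 and 2.496 in the monolayer, 4.481, 6.702, 4.628 and 3.893 in subcutaneous tumours, 7.217, 11.32 and 10.69 in forebrain metastases and 9.203, 11.24 and 4.963 in hindbrain metastases. The gene thus stepped up from monolayer to subcutaneous tumour to brain. It was called higher in metastases against the subcutaneous tumours (1.68-fold, adjusted p = 0.00441, limma) and against the monolayer (2.85-fold, adjusted p = 4.48e-05, limma). Tumour-free brain, where no human cells are labelled, gave 15 human MMP16 reads in 7 of 8 libraries, which scales to 35.8 of the 282 reads in metastases, or 12.7%. With these reads subtracted both calls held, the first only just (1.46-fold, adjusted p = 0.048, limma). For MMP24 the expected share was 1.44% and for MMP11 1.12%, and for the other tested members it was lower.

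Human inhibitors had smaller folds between the sites. TIMP1 stood at 845.0, 904.1, 828.1 and 858.8 in subcutaneous tumours, at 536.2, 574.7 and 662.8 in forebrain metastases and at 1019, 985.6 and 701.6 in hindbrain metastases. The subcutaneous tumours lay close together, while the metastases spread on both sides of them. The average over metastases was 1.19-fold lower (adjusted p = 0.0338, limma), and 7 of 18 alternatives lost that call. TIMP2 was at 62.00, 61.06, 57.68 and 57.35 in subcutaneous tumours and ran from 53.66 to 63.95, with a median of 57.20, in the 6 metastases. It was not called (1.03-fold, adjusted p = 0.569, limma).

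TIMP3, the matrix-bound inhibitor, was near the lower limit of detection and did not pass the filter. It read 0.01641, 0.05651 and 0.01383 in the monolayer, 0.1181, 0.1587, 0.1624 and 0.1865 in subcutaneous tumours, 0.4393, 0.7179 and 0.6706 in forebrain metastases and 0.8230, 1.245 and 1.141 in hindbrain metastases. The 3 settings did not overlap. Without the filter it was called in metastases against subcutaneous tumours (adjusted p = 0.000343, limma) and against the monolayer (adjusted p = 0.000155, limma). The metastases held 111 human TIMP3 reads, of which 4.77 (4.3%) were expected from mouse RNA, beside 77509 mouse Timp3 reads in the same libraries.

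**Figure D1:**
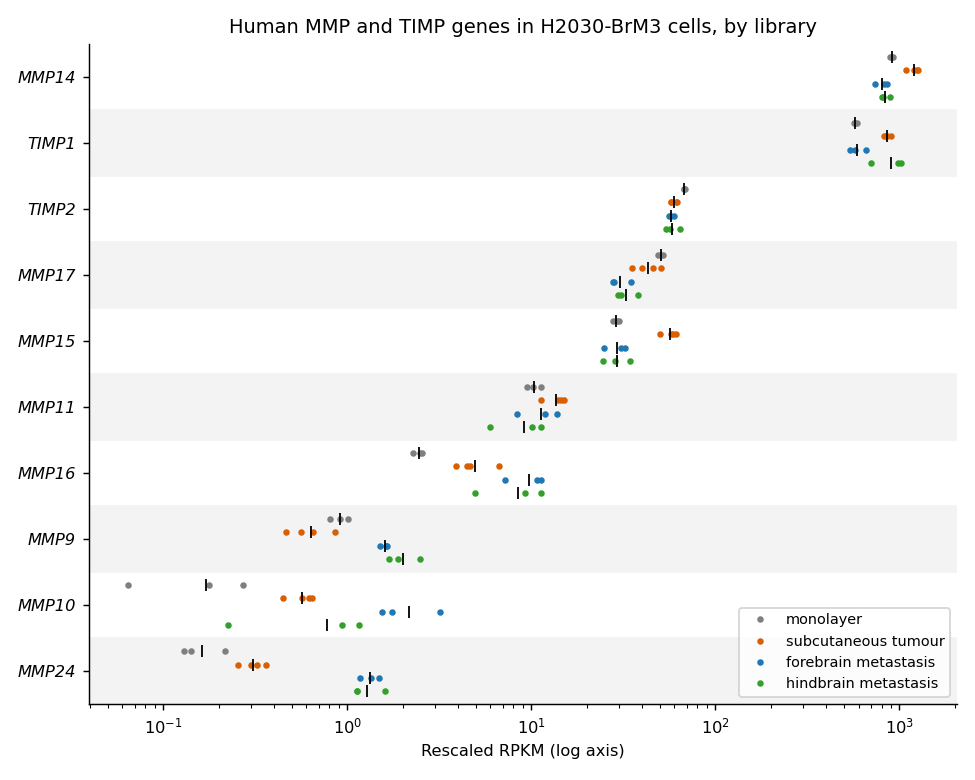
Rescaled RPKM (log axis) of the 10 human members tested, by library: each point is 1 library, the black tick is the group mean, and colours mark monolayer (n = 3), subcutaneous tumour (n = 4), forebrain metastasis (n = 3) and hindbrain metastasis (n = 3). MMP15 and MMP14 of subcutaneous tumours lie to the right of all other libraries, and MMP16 and MMP24 step up from monolayer to metastasis.

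Metastases were next set against the monolayer, the cells before injection. Here 7 of the 10 members tested were called, 5 higher and 2 lower, beside 42.9% of all genes tested (21.9% higher and 21.0% lower). The median log2 change was 0.166 over the members and 0.00656 over all genes. MMP24 (1.98-fold), MMP10 (1.97-fold) and MMP9 (1.46-fold) were higher beside MMP16, all from levels under 3 in the monolayer. MMP24, MMP10 and MMP9 needed the metastases to pass the filter here too. Their place among the members tested is no support for the calls, and the count and median above rest partly on them. MMP17 fell from 50.5 ± 1.35 (n = 3) to 31.6 ± 4.13 (n = 6), a fold of 1.59 without overlap (adjusted p = 0.000291, limma).

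The inhibitors parted in this comparison. TIMP1 was at 571.4, 590.9 and 564.0 in the monolayer and 1.26-fold higher in metastases (adjusted p = 0.0140, limma), with overlap. Forebrain metastases, at 591 ± 64.9, lay around the monolayer, and hindbrain metastases, at 902 ± 174, lay above it. TIMP2 was at 67.32, 68.48 and 67.72 and 1.17-fold lower in metastases (adjusted p = 0.0070, limma), with no overlap. MMP15 did not differ by more than its spread (log2 change 0.00 ± 0.10 SE, adjusted p = 0.994, limma). MMP14 was 1.11-fold lower with no overlap, just outside the threshold (adjusted p = 0.0515, limma), and 5 of 17 alternatives called it. The TIMP1 call was lost without monolayer replicate 3 (adjusted p = 0.0535, limma) and without the filter on low values.

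Subcutaneous growth against the monolayer gave 5 calls among the 10 members tested, 4 higher and 1 lower, beside 52.4% of all genes (21.5% higher and 30.9% lower). MMP15 (1.93-fold, adjusted p = 8.26e-06), MMP14 (1.32-fold, adjusted p = 0.000123), TIMP1 (1.49-fold, adjusted p = 0.000384) and MMP16 (1.70-fold, adjusted p = 0.0102) were higher by limma. The groups did not overlap for any of these 4. TIMP2 was 1.14-fold lower (adjusted p = 0.0247, limma), a call lost in 8 of 14 alternatives, both other scalings among them. The comparisons of the 3 settings share libraries, so their values stand side by side and were not correlated.

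**Figure D2:**
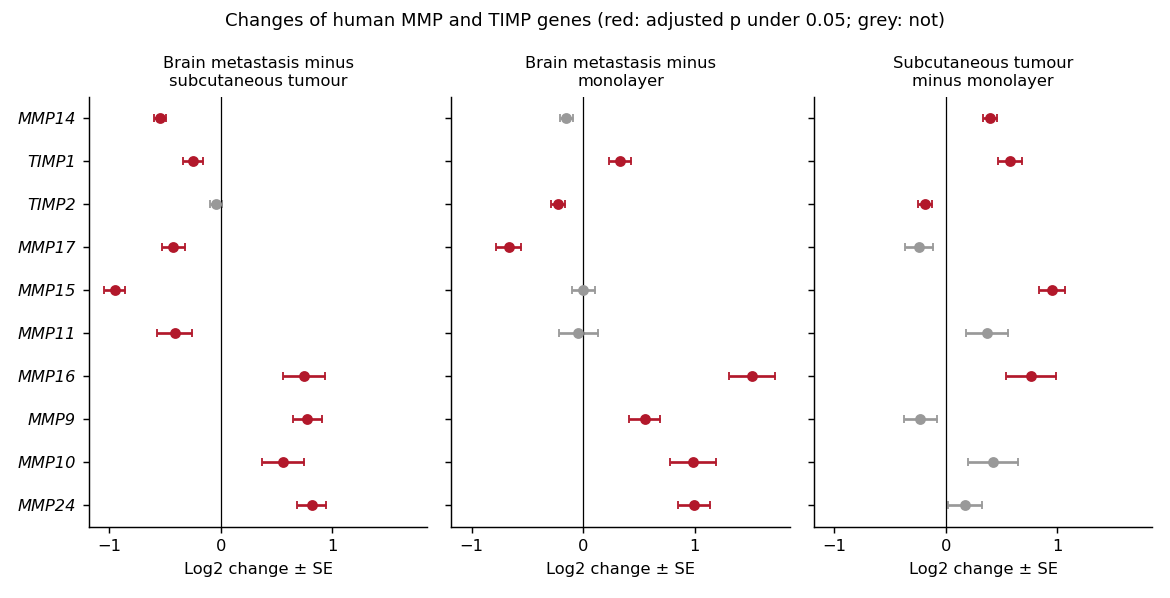
Log2 change ± SE (x axis) of the 10 human members tested in the 3 comparisons between growth settings, with red for an adjusted p under 0.05 and grey for others. MMP14 and MMP15 are lower in brain metastases than in subcutaneous tumours (-0.55 and -0.95), and both are higher in subcutaneous tumours than in the monolayer (0.40 and 0.95).

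The 2 brain regions were compared directly for the tumour genes, 3 hindbrain against 3 forebrain metastases. No member was called among 10 tested by limma, where 0.290% of 13455 genes were (0.141% higher and 0.149% lower), and 2 members had an unadjusted p under 0.05. These were TIMP1 and MMP10. TIMP1 was at 902 ± 174 in hindbrain and 591 ± 64.9 in forebrain metastases (n = 3 each), 1.51-fold higher without overlap but with an adjusted p of 0.171 (limma). It passed when all 13 human libraries shared 1 estimate of spread (adjusted p = 0.0133, limma) and without hindbrain replicate 3, the lowest of its group (1.70-fold, adjusted p = 0.0124, limma). MMP10 went the other way, at 0.775 ± 0.488 in hindbrain and 2.16 ± 0.891 in forebrain metastases (adjusted p = 0.374, limma), on 16 and 34 reads. MMP10 reached the filter here only through the forebrain metastases, so its place among the members tested is no support for a difference.

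The remaining 12 human members, beside TIMP3, did not pass the filter. The collagenase MMP1 had 17, 56 and 8 reads in the monolayer, subcutaneous tumours and metastases. MMP2, the gelatinase that MMP14 activates, had 1, 3 and 1 reads in the same order, and MMP3, MMP7, MMP13, MMP21, MMP23B, MMP26 and MMP27 had at most 10 in any setting. MMP19 had 18, 13 and 0 reads, MMP25 had 17, 36 and 12, and MMP28 had 14, 22 and 4. None of these 12 exceeded a level of 1 in any library. Metastasis libraries held 3569034 to 6875250 human reads against 27194145 to 49463523 in the monolayer and subcutaneous tumours, so the absence of reads in metastases says less.

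Host tissue was first compared between forebrain with and without tumours. Timp1, which binds most secreted MMPs, was higher and Mmp9 lower, and the other 12 of 14 members tested did not pass. Timp1 reached the filter only through tumour-bearing libraries, in both regions, so its place among the members tested is no support for the call. This is 2 calls of 14, beside 30.4% of all 15777 genes (14.4% higher and 16.0% lower), with median log2 changes of -0.0221 for the members and -0.028 for all genes. The 14 are the members at 1 or more in at least 3 of the 14 brain libraries, of 26 mouse members in all.

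Timp1 was at 0.1702, 0.3547, 0.3041 and 0.1522 in tumour-free forebrain and at 2.416, 1.989 and 1.534 in forebrain with tumours. The lowest tumour-bearing library was above the highest tumour-free one. The fitted fold was 2.38 (log2 change 1.25 ± 0.17 SE, adjusted p = 0.00016, limma), on 12 reads in all without and 235 with tumours. The log2(value + 1) scale understates this change, with group means of 0.245 without and 1.98 with tumours. Mmp9 stood at 4.140, 3.356, 2.960 and 3.537 without and 1.905, 1.801 and 2.109 with tumours, 1.53-fold lower with no overlap (adjusted p = 0.00118, limma). Both calls held in all 14 alternatives, leaving out each library included.

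In the hindbrain Timp1, with the same limit, was the single call among 14 members tested, where 3.25% of all genes were called (2.92% higher and 0.330% lower). It was at 0.8989, 1.509, 0.7055 and 1.104 without tumours and at 7.241, 6.300 and 4.172 with tumours, again with no overlap. The fitted fold was 3.33 (log2 change 1.74 ± 0.17 SE, adjusted p = 2.64e-05, limma), and the call held in all alternatives. The log2(value + 1) scale understates this change too, with group means of 1.054 without and 5.905 with tumours. The fitted folds of Timp1 thus do not rank the regions. Mmp9 was at 6.30 ± 0.580 without (n = 4) and 5.50 ± 0.617 with tumours (n = 3), with overlap (adjusted p = 0.499, limma). Mmp17 was called only without tumour-free hindbrain replicate 1 (1.24-fold lower, adjusted p = 0.0482, limma). The median log2 change was -0.011 for the members and -0.0143 for all genes.

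Whether the tumour effect differed between the regions was tested with an interaction term in limma, which called 0 of 14 members and 0.456% of all genes (0.203% higher and 0.254% lower). Mmp9 was the 1 member with an unadjusted p under 0.05. For Timp1 even the sign of the difference depended on the scale, at 0.49 ± 0.24 SE (adjusted p = 0.278, limma) and at -0.22 with a pseudocount of 0.1 (adjusted p = 0.814) or -0.33 with voom on recovered reads (adjusted p = 0.79, limma). That of Mmp9 differed by 0.44 ± 0.15 SE (adjusted p = 0.142, limma). The lower Mmp9 was thus called in the forebrain and not in the hindbrain, with the difference itself not passing the test.

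Several measured features moved with Timp1. In each region the library with the lowest human share of reads also had the lowest Timp1. Replicate 3 had 4.81% human reads and a level of 1.534 in the forebrain, and 5.48% and 4.172 in the hindbrain, while the other libraries had 6.74 to 7.5% human reads. Astrocyte markers (6 genes) summed to 1341 to 1411 in tumour-free and 1881 to 2697 in tumour-bearing forebrain, and 4 of 6 were called higher. In the hindbrain they summed to 2023 to 2446 and 2691 to 3348, with 1 of 6 called. Microglia markers rose in both regions, 6 of 6 called in the forebrain (218 to 242 without and 415.5 to 529 with tumours) and 5 of 6 in the hindbrain (143.1 to 173 and 255.8 to 336.2). Endothelial markers were called higher for 4 of 6 genes and pericyte and smooth muscle markers for 3 of 6 in the forebrain, and 0 of either in the hindbrain. The part of these cells in the Timp1 result was not tested.

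Cross-mapping from human TIMP1 was measured directly. The 3 monolayer libraries, with 44251 human TIMP1 reads, held 1 mouse Timp1 read, and at that rate per human read of all genes 0.235 of the 1015 mouse Timp1 reads in metastases came from human RNA. In the human annotation TIMP1 lies inside the synapsin gene SYN1 on the opposite strand and TIMP3 inside SYN3, and the strand setting of the authors' counting is not given in the sources used here. The same nesting is known in mouse. Mouse Syn1 was not called in either region (1.03-fold lower in the forebrain, adjusted p = 0.785, and 1.17-fold lower in the hindbrain, adjusted p = 0.304, limma). Of the 23 human members, 11 have an exon that overlaps an exon of another annotated gene, on the opposite strand for MMP9, MMP16 and MMP24, which were higher in metastases, and on both strands for TIMP2. TIMP1, MMP14 and MMP15 are not among the 11.

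Mmp12, the macrophage metalloelastase, did not reach the filter in brain and is given in reads. The 8 tumour-free libraries held 2 reads in total, both in forebrain replicate 3. Forebrain with tumours held 22, 17 and 23 reads (levels of 0.3695, 0.2498 and 0.2978), and hindbrain with tumours held 74, 38 and 43 (0.7916, 0.6611 and 0.6387). Without the filter it was called in the forebrain (adjusted p = 0.00175, limma) and in the hindbrain (adjusted p = 2.24e-05, limma). Tumour-bearing libraries had 52344933 to 86118719 mouse reads against 17744212 to 23030314 in tumour-free brain. The stromelysins Mmp3 and Mmp10 were called without the filter in the hindbrain, on 42 and 10 reads against 1 and 0, and Mmp25 in the forebrain, on 109 against 11. These genes are named because the unfiltered fit called them, with their values already seen.

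**Figure D3:**
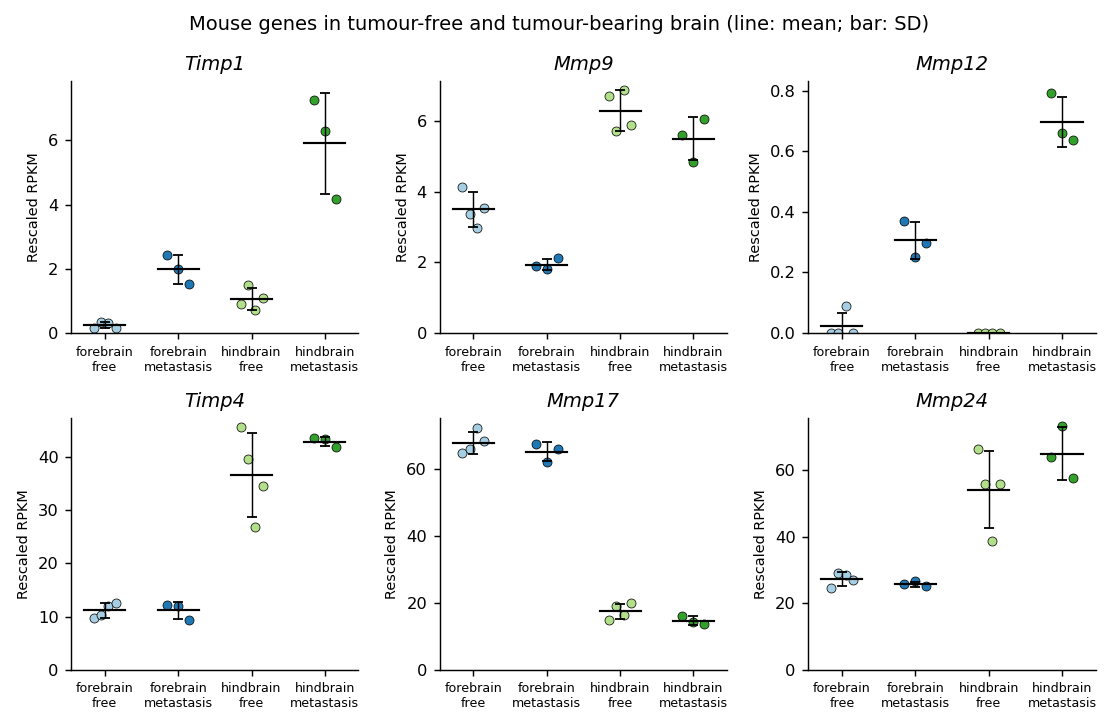
Rescaled RPKM of 6 mouse members in tumour-free forebrain and hindbrain (n = 4 each) and in forebrain and hindbrain with metastases (n = 3 each), with each library as a point, the mean as a line and the SD as a bar. Timp1 and Mmp12 are higher with tumours in both regions, while Timp4, Mmp17 and Mmp24 follow the region.

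No other inhibitor was called with the tumour. Timp2 was at 256.4, 268.7, 266.9 and 228.4 in tumour-free and 219.5, 193.3 and 216.1 in tumour-bearing forebrain, 1.22-fold lower without overlap but not called (adjusted p = 0.0776, limma). In the hindbrain it was at 185.5, 255.2, 244.8 and 240.8 without and 219.4, 178.6 and 237.8 with tumours. Timp3 was at 109.2, 115.6, 125.0 and 120.0 without and 123.3, 130.3 and 91.45 with tumours in the forebrain. In the hindbrain Timp3 was at 157.0, 159.2, 153.9 and 151.7 without and 144.8, 151.5 and 151.1 with tumours, a 1.04-fold difference without overlap that was not called (adjusted p = 0.829, limma).

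Tumour-free hindbrain differed from tumour-free forebrain in 11 of 13 members tested, 9 higher and 2 lower, beside 49.2% of all 15194 genes (30.0% higher and 19.2% lower). The median log2 change was 0.463 over the members and 0.0834 over all genes. Under median-of-ratios scaling the share of calls that were higher, over all genes, went from 61.1% to 48.6%, and no member changed direction.

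Timp4, the inhibitor most restricted to brain and heart, was at 45.61, 39.72, 26.95 and 34.51 in hindbrain and 9.746, 10.35, 11.97 and 12.63 in forebrain. The lowest hindbrain value was more than the highest forebrain value, and the fold was 3.06 (adjusted p = 8.49e-06, limma). Syn2, the gene that holds Timp4, was 1.57-fold lower in hindbrain (adjusted p = 2.2e-05, limma). With tumours Timp4 stayed at 43.54, 43.37 and 41.87 in hindbrain and 12.13, 12.04 and 9.398 in forebrain, with an adjusted p of 0.457 and 1.00 for the tumour effect (limma). Astrocyte markers were called higher in hindbrain for 5 of 6 genes (sums of 2023 to 2446 and 1341 to 1411), and their part in the result was not tested.

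Membrane-type members went in both directions between the regions. Mmp17 was at 14.82, 18.86, 16.44 and 19.80 in hindbrain and 64.71, 65.79, 72.21 and 68.14 in forebrain, 3.74-fold lower (adjusted p = 1.60e-07, limma). Mmp16 was 1.41-fold lower (13.3 ± 1.62 against 19.3 ± 3.30, adjusted p = 0.00729, limma). Mmp24 was 1.92-fold higher (54.1 ± 11.5 against 27.2 ± 1.98, adjusted p = 0.00027, limma), Mmp14 1.49-fold higher (adjusted p = 0.00175, limma) and Mmp15 1.32-fold higher (adjusted p = 0.0016, limma). Neuron markers were called lower in hindbrain for 3 of 6 genes and oligodendrocyte markers higher for 6 of 6, and their part was not tested.

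Mmp23, a membrane-tethered member without a haemopexin domain, was at 7.097, 3.833, 3.803 and 5.951 in hindbrain and 0.8493, 1.593, 1.214 and 0.7595 in forebrain. The groups did not overlap, and the fold was 2.89 (adjusted p = 8.50e-05, limma). Mmp23 reached the filter only through hindbrain, so its place among the members tested is no support for its call. The count and median of the members between the tumour-free regions rest partly on it. The gelatinases Mmp2 (1.70-fold, adjusted p = 0.00266, limma) and Mmp9 (1.62-fold, adjusted p = 0.000334, limma) were higher in hindbrain too, as was Timp3 (1.32-fold, adjusted p = 0.000355, limma). Syn3, the gene that holds Timp3, was 1.5-fold higher there too (adjusted p = 0.000469, limma), and Syn1, which holds Timp1, 1.39-fold lower (adjusted p = 0.00123, limma). The part of Syn3 reads in the Timp3 result was not tested. Mmp28 was called (1.38-fold, adjusted p = 0.0314, limma) and lost with the replicate block and 5 other alternatives. Mmp11 and Timp2 did not pass. Fibroblast and meningeal markers, which include collagens cut by these enzymes, were called higher in hindbrain for 5 of 6 genes and lower for 1, with sums of 180.5 to 281 and 142.9 to 151.7, and their part was not tested.

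Host tissue of subcutaneous tumours was set against tumour-bearing brain, where tissue and tumour site cannot be told apart. Of 21 members tested, 19 were called, 14 higher and 5 lower in subcutaneous tumours, beside 80.7% of all 16814 genes (33.5% higher and 47.1% lower). The median log2 change was 3.16 over the members and -0.26 over all genes, and quantile normalization moved the latter to -0.0359. Subcutaneous libraries held 2443856 to 3978183 mouse reads, far fewer than brain. Mmp3, Mmp8, Mmp10, Mmp12, Mmp13, Mmp19 and Mmp27 passed the filter only through the subcutaneous tumours, and Mmp24 and Timp4 only through brain. The place of these genes among the members tested is no support for their calls. The count and median of the members rest partly on them. Fitted folds here are on the log2(value + 1) scale. It understates the change of members that are low on 1 side, such as Mmp8, Mmp12, Mmp19, Mmp24 and Timp4.

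Gelatinases and the membrane activator were abundant there. Mmp2 was at 841.3, 621.6, 674.8 and 1079 in subcutaneous tumours and ran from 4.501 to 10.84, with a median of 6.310, in tumour-bearing brain (100.2-fold, adjusted p = 3.85e-10, limma). Mmp9 was at 838.9, 184.8, 756.5 and 455.7 against 1.801 to 6.061, median 3.474 (110.5-fold, adjusted p = 7.08e-08, limma). Mmp14 was at 1056, 909.9, 1203 and 1204 against 25.07 to 51.51, median 34.19 (30.3-fold, adjusted p = 4.23e-10, limma). None of the 3 overlapped between sites, and Mmp9 varied most among the subcutaneous tumours.

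Secreted stromelysins and the rodent collagenase were close to absent in brain. Mmp13, the main interstitial collagenase of mice, was at 137.1, 97.36, 141.0 and 68.08 against 0.01595 to 0.08868, median 0.02784 (adjusted p = 3.77e-10, limma). Mmp3 was at 148.2, 111.4, 87.50 and 127.6 against 0 to 0.1826, median 0.08611 (adjusted p = 6.43e-11, limma). Mmp10 was at 6.363, 3.685, 10.16 and 4.053 against 0 to 0.04515, median 0.02089 (adjusted p = 1.26e-06, limma). In brain these levels rest on 32, 50 and 12 reads over 6 libraries, so their fitted folds depend on the pseudocount and are not given.

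Members made by macrophages and neutrophils were higher as well. Mmp12 was at 36.10, 22.86, 15.56 and 53.81 against 0.2498 to 0.7916, median 0.5041 (20.1-fold, adjusted p = 1.81e-07, limma). The neutrophil collagenase Mmp8 was at 4.579, 8.858, 15.47 and 1.539 against 0.02059 to 0.2989, median 0.06814 (6.16-fold, adjusted p = 0.000263, limma). Both fitted folds depend on the pseudocount and understate the change. The means were 32.1 and 0.501 for Mmp12 and 7.61 and 0.130 for Mmp8. Macrophage and monocyte markers (6 of 6 called higher) summed to 4409 to 5225 in subcutaneous tumours and 22.29 to 45.66 in tumour-bearing brain. Neutrophil markers (3 of 7 called higher, 6 tested) summed to 93.33 to 997.6 and 3.606 to 37.53, and their part in these results was not tested.

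Members with other substrates were higher too. Mmp19 was at 59.72, 53.28, 139.8 and 93.36 against 0.1930 to 1.489, median 0.7588 (45.3-fold, adjusted p = 1.16e-08, limma). Mmp11 was at 33.82, 41.15, 48.45 and 31.17 against 1.878 to 5.282, median 3.389 (8.91-fold, adjusted p = 1.69e-08, limma). Mmp23 was at 59.31, 53.02, 45.63 and 78.41 against 0.7218 to 6.397, median 3.789 (15.0-fold, adjusted p = 4.49e-09, limma). Fibroblast markers (6 of 6 called higher) summed to 36620 to 75020 in subcutaneous tumours and 134.7 to 235.1 in tumour-bearing brain, and their part was not tested. Mmp27 was at 9.641, 7.035, 6.626 and 14.58 on 205 reads, with 1 read in all 6 brain libraries and no fold given.

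Host inhibitors differed from each other in size and direction. Timp1 was at 279.0, 278.9, 209.7 and 235.3 in subcutaneous tumours and 1.534 to 7.241, median 3.294, in brain (55.8-fold, adjusted p = 2.30e-10, limma). Timp2 was at 413.8, 341.1, 320.3 and 483.4 against 178.6 to 237.8, median 217.8 (1.83-fold, adjusted p = 0.000114, limma), a small fold between libraries of very unequal depth. Timp3 was at 160.8, 158.4, 118.8 and 178.5 against 91.45 to 151.5, median 137.5, and was not called (1.17-fold, adjusted p = 0.137, limma), although 4 of 17 alternatives called it, both other scalings among them. Timp4 was lower, at 1.431, 0.8434, 0 and 2.165 against 9.398 to 43.54, median 27.00 (11.9-fold, adjusted p = 6.09e-07, limma). Syn2, the gene that holds Timp4, was 86.5-fold lower (adjusted p = 1.01e-09, limma). Syn1 and Syn3 were 61.8-fold and 6.46-fold lower, and the part of synapsin reads in these results was not tested.

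Beside Timp4, the members lower around subcutaneous tumours were the membrane-type genes Mmp15, Mmp16, Mmp17 and Mmp24. Mmp24 was at 1.396, 0, 0.1722 and 0 against 25.02 to 73.27, median 42.08 (32.4-fold, adjusted p = 1.22e-08, limma). Of its 13 subcutaneous reads, 3.79 were expected from human RNA. Mmp17 was at 1.060, 1.537, 4.102 and 1.397 against 13.66 to 67.20, median 38.99 (11.3-fold, adjusted p = 1.47e-07, limma). Mmp16 was at 0.9328, 2.094, 1.381 and 1.344 against 10.70 to 20.04, median 16.00 (6.80-fold, adjusted p = 1.33e-08, limma), and Mmp15 at 3.908, 3.679, 3.628 and 3.875 against 11.12 to 16.79, median 13.09 (3.00-fold, adjusted p = 3.88e-08, limma). Neuron, astrocyte and oligodendrocyte markers (6 of 6 of each) were called lower in subcutaneous tumours, and their part was not tested.

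**Figure D4:**
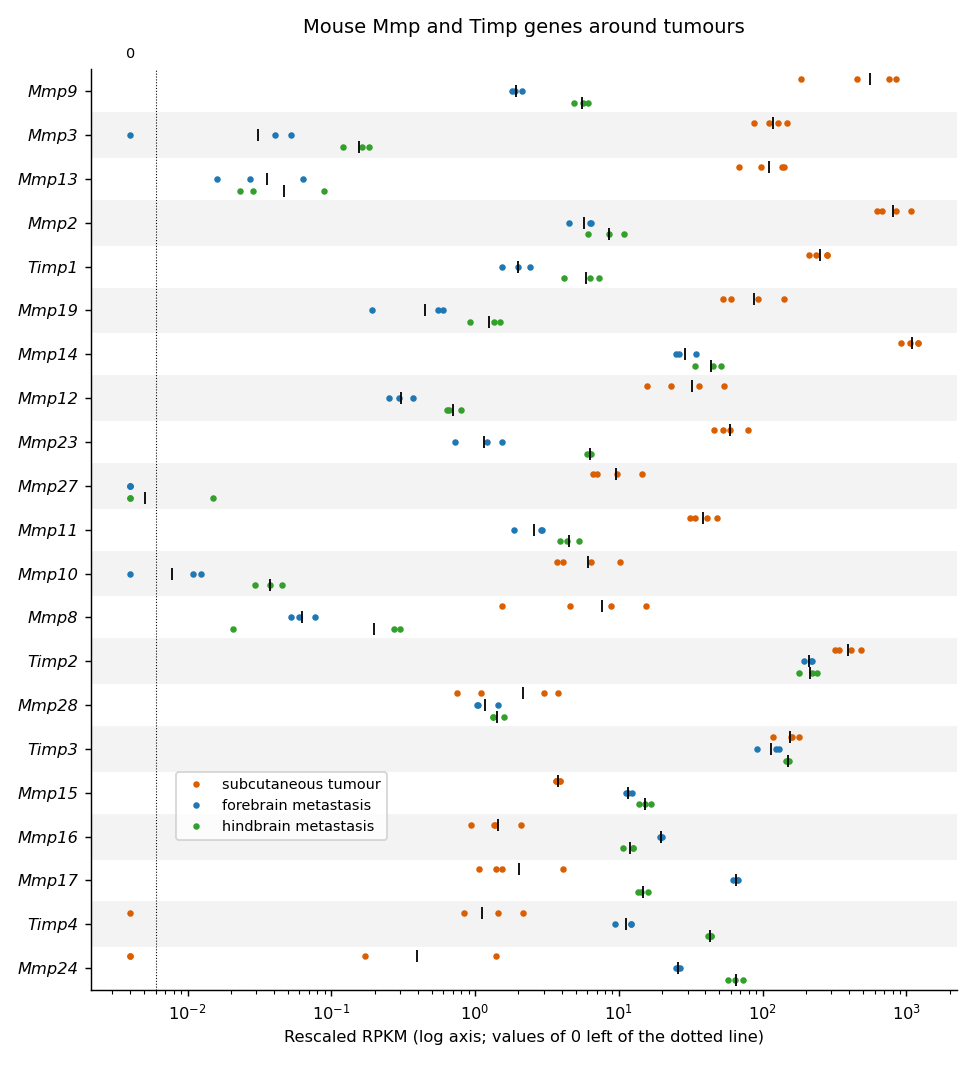
Rescaled RPKM (log axis) of the 21 mouse members tested, by library, in the host tissue of subcutaneous tumours (n = 4) and of forebrain and hindbrain metastases (n = 3 each), ordered by the change between sites, with black ticks for group means and values of 0 left of the dotted line. The order is that of the log2(value + 1) change, which depends on the pseudocount for genes near 0 in brain such as Mmp3, Mmp13 and Mmp27. Timp2, Mmp28 and Timp3 lie close together between sites, and Timp4 and Mmp24 are lower in subcutaneous tumours.

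The remaining mouse members were scarce everywhere. Mmp20 had 5 reads around subcutaneous tumours, 27 in tumour-bearing and 7 in tumour-free brain, Mmp21 had 0, 22 and 6, and Mmp25 had 50, 202 and 40. Mmp1a and Mmp1b, the rodent counterparts of the human collagenase MMP1, had 1 read each around subcutaneous tumours and none in brain. Mmp28 passed the filter and was not called around subcutaneous tumours (2.16 ± 1.46 against 1.30 ± 0.215, adjusted p = 0.267, limma), except without subcutaneous replicate 1 (adjusted p = 0.0429, limma).

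Human and mouse reads of the same gene show which species supplied a transcript at each site. The human share of a gene was taken as human reads per kb over human and mouse reads per kb, with the authors' lengths, and it is described here without a test. In the 6 brain metastasis libraries the tumour supplied 4.81 to 7.5% of all reads, yet 93.2 to 96.9% of TIMP1 and 58.6 to 77.4% of MMP14. Without the division by length these shares of reads were 91.0 to 95.8% and 53.0 to 73.2%. Thus the tumour was the larger source of both transcripts in every metastasis library.

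MMP10 also had more human than mouse reads in metastases, 50 against 12, with a human share per kb from 32.9 to 100% among libraries. The genes named next were mainly of host origin there. The human share was 13.6 to 40.6% for MMP11, 14 to 22.5% for MMP15, 3.04 to 21.5% for MMP17, 2.23 to 8.52% for MMP9, 1.9 to 3.54% for TIMP2 and 0.0387 to 0.0941% for TIMP3. These shares depend on the authors' lengths. Without the division by length they were 7.95 to 13.3% for MMP15, 0.633 to 5.27% for MMP17 and 6.3 to 21.5% for MMP9. MMP2 had 2036 mouse reads and 1 human read in the same libraries, so its transcripts were the host's, while most transcripts of its activator MMP14 were the tumour's.

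Subcutaneous tumours, with 87.8 to 95.2% human reads, had another division. The human share was 96.6 to 98.8% for TIMP1, 91.2 to 95.7% for MMP14, 99.2 to 99.7% for MMP15 and 58.4 to 79.6% for TIMP2. It was 0.526 to 3.9% for MMP9, 0.265 to 1.02% for MMP19 and at most 0.864% for MMP3, and MMP13 and MMP2 had 0 and 3 human reads beside 3648 and 10344 mouse reads. Without the division by length the human share of MMP9 was 1.53 to 10.7%. The host thus supplied nearly all transcripts of MMP2, of collagenase-3 and of stromelysin-1, and most of those of MMP9.

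**Figure D5:**
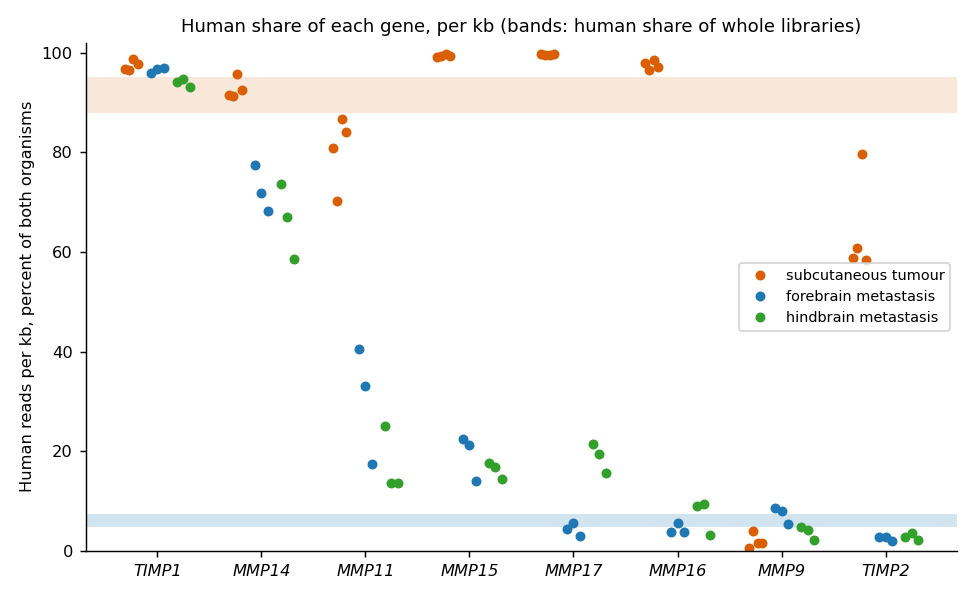
Human share (percent of human and mouse reads per kb) of 8 genes in each library of subcutaneous tumours (n = 4), forebrain metastases (n = 3) and hindbrain metastases (n = 3), with shaded bands for the human share of all reads of those libraries (87.8 to 95.2% and 4.81 to 7.5%). On this share per kb TIMP1 stays above 93% at every site, MMP14 lies at 58.6 to 77.4% in metastases, and MMP9 is under 9% everywhere. Without the division by length MMP9 reaches 21.5% in metastases.

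Summed levels of a class were described across groups. On canonical lengths human MMPs summed to 409 ± 5.92 in the monolayer, 488 ± 30.8 in subcutaneous tumours, 362 ± 28.4 in forebrain and 363 ± 19.7 in hindbrain metastases, of which MMP14 made 76.8 to 80.9% over the libraries. Human TIMPs summed to 1220 ± 23.4, 1540 ± 41.7, 1210 ± 121 and 1740 ± 313 in the same order. For mouse genes no canonical lengths were at hand, so their sums weight each gene by the authors' length and serve only to set groups side by side. Mouse Mmps summed to 168 ± 5.28 in tumour-free and 164.5 ± 5.81 in tumour-bearing forebrain, and to 170 ± 17.0 and 179 ± 11.7 in the hindbrain, against 2936 ± 542 around subcutaneous tumours. Mouse Timps summed to 384 ± 19.3 and 338 ± 19.5 in the forebrain, 425 ± 27.4 and 410 ± 27.9 in the hindbrain and 796 ± 110 around subcutaneous tumours. The sums of Mmps in brain with and without tumours lay within their spreads.

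Genes that act on MMPs or resemble them were read as 3 lists, each beside the background shares already given. Of the 16 regulators of MMP activity, 11 human genes were tested, and 3 were higher and 6 lower in brain metastases than in subcutaneous tumours (median log2 change -0.178, all genes 0.055). PLAU, the urokinase that makes plasmin, an activator of proMMPs, was 8.16-fold higher, and its receptor PLAUR was 2.06-fold lower. PLAU averaged 13.6 and 14.1 in forebrain and hindbrain metastases, around the monolayer level of 12.7, and 0.765 in subcutaneous tumours. LRP1, which clears MMP9 and TIMP1 complexes, was 2.03-fold lower, and the integrin chain ITGB1 1.37-fold higher. ITGB1 averaged 1102 in the monolayer, 986 and 1097 in forebrain and hindbrain metastases and 763 in subcutaneous tumours. In metastases against the monolayer 1 regulator was higher and 4 lower, with CD44, a docking site of MMP9, 4.06-fold lower. Between subcutaneous tumours and the monolayer 3 were higher and 5 lower, and between the metastases of the regions 0 of 10 were called.

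In host tissue the regulators were led by A2m and Lcn2. In the forebrain 7 of 15 tested were higher and 1 lower (median log2 change 0.373, all genes -0.028), with the protease trap A2m 4.06-fold, Lcn2, a partner of MMP9, 3.41-fold, Cd44 1.99-fold and Lrp1 1.84-fold higher. In the hindbrain 4 of 15 were higher, with Lcn2 3.65-fold and Cd44 2.22-fold. A2m was also the 1 regulator whose tumour effect differed between the regions, 2.67-fold smaller in the hindbrain (adjusted p = 0.0336, limma), and it was 6.58-fold higher in tumour-free hindbrain than forebrain. Between the tumour-free regions 6 of 14 regulators were higher and 0 lower. Around subcutaneous tumours 13 of 15 were higher and 2 lower than in tumour-bearing brain, with the urokinase receptor Plaur 27.2-fold higher and A2m 19.6-fold lower.

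ADAM and ADAMTS proteases, relatives that TIMPs also inhibit, gave 3 higher and 1 lower of 10 human genes in metastases against subcutaneous tumours. ADAM12 was 3.51-fold and ADAM10, a sheddase, 1.51-fold higher. ADAM10 averaged 189 and 181 in forebrain and hindbrain metastases, around the monolayer level of 188, and 122 in subcutaneous tumours. In metastases against the monolayer 4 of these proteases were higher and 2 lower, and between subcutaneous tumours and the monolayer 2 and 4. In host forebrain 4 of 12 were higher and 1 lower with tumours, led by Adamts1 (1.59-fold) and Adam17 (1.51-fold), and in the hindbrain 0 of 12 were called. Tumour-free hindbrain had 9 of 12 higher and 0 lower than forebrain, led by Adamts4 (2.43-fold), and host tissue of subcutaneous tumours had 11 of 13 higher and 1 lower, led by Adam8 (59.0-fold).

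Transcription factors known to act on MMP genes included the AP-1 proteins whose letters were searched above. In metastases against subcutaneous tumours 5 of 12 human genes were higher and 5 lower, with FOS 22.7-fold, FOSB 7.90-fold and JUNB 2.55-fold lower. Between subcutaneous tumours and the monolayer 4 of 12 were higher and 4 lower, and between metastases and the monolayer 1 and 4. FOS and FOSB were 19.4-fold and 9.37-fold higher in subcutaneous tumours than in the monolayer, with FOS from 123.7 to 677.9 among these tumours. FOSB passed the filter only through the subcutaneous tumours. Levels of FOSL1 and ETS1 went the other way, from 28.8 and 47.3 in the monolayer to 7.88 and 11.7 in subcutaneous tumours. Around subcutaneous tumours all 12 tested mouse factors were higher than in tumour-bearing brain, beside 33.5% of all genes. Fos was 15.1-fold and Junb 7.69-fold higher. Tumour-free hindbrain had 2 of 11 factors higher and 3 lower than forebrain. With tumours, 1 of 11 was higher (Ets1, 1.64-fold) and 1 lower (Jund) in host forebrain and 0 of 11 in hindbrain.

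Labels were checked against markers. The human libraries had 5 of 6 epithelial markers of lung adenocarcinoma at 1 or more in tumours and 4 of 6 in the monolayer, while KRT19 was under 0.1 in the monolayer, subcutaneous and forebrain libraries. Brain libraries had all 6 markers of neurons, astrocytes, oligodendrocytes and microglia at 1 or more, and choroid plexus markers ranged from 25.94 to 1224 among forebrain libraries with tumours. Subcutaneous tumours had 5 of 5 keratinocyte and 4 of 4 muscle markers at 1 or more on average, with keratinocyte sums from 2.152 to 3856, so skin and muscle entered those libraries unequally.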

How the data were processed

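RNA-seq of 21 libraries was used. Per the submitters' processing notes the authors used the builds hg38 and mm10, and their deposited tables hold RPKM per gene and library for each organism; no source used here gives the aligner, counter, annotation or strand. Members and gene lists were chosen with earlier results of these data known. RPKM was rescaled to the same sum per library and organism, and genes that reached 1 in 3 or more of the fitted libraries were tested with limma 3.58.1 (trend and robust, R 4.3.3) on log2(value + 1), two-sided, with Benjamini-Hochberg adjustment over all genes and a threshold of 0.05. Fold changes are on that scale, which understates the change of genes with low values. Whole reads were recovered from the RPKM steps for 33970 of 33975 human and 32643 of 32644 mouse genes above 0, within 0.02 of a whole read, and served for depth, origin, cross-mapping and a voom alternative. The authors' gene lengths equal the median transcript length for many genes (MMP14 578.5 bases, canonical 3701), so levels of different human genes were compared only on canonical lengths from GENCODE. Human reads in tumour-free brain and mouse reads in the monolayer gave the reads expected from the other organism.

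The genes given in every library were the detected TIMPs and every called member whose higher group averaged 5 or more and whose fold was 2 or more. The main fits had no replicate block, and a block on the replicate number was an alternative in every comparison. Same-numbered forebrain and hindbrain metastases had correlated deviations from their group means in mouse reads (0.222, 0.393 and 0.430), while those of the monolayer and subcutaneous tumours did not (-0.299, 0.0969 and -0.21). The scripts were tested on simulated data, in which false calls exceeded the adjusted threshold where depths of the groups differed, most for subcutaneous host tissue, so small folds there are the least certain. Python 3.11.15 was used for tables and figures.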

Additional observations from a re-analysis of the deposited data

Results flagged for a closer look

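In 55 groups of at least 4 libraries examined, 2 held a value far from the others, where chance gives about 1 group in 20. Mouse Mmp14 in tumour-free hindbrain was lowest in replicate 3, at 32.68 against 44.23, 45.95 and 45.92. Mouse Mmp17 around subcutaneous tumours was highest in replicate 3, at 4.102 against 1.060, 1.537 and 1.397.

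Reads of the absent organism were found above the limit that a count of 0 allows. Tumour-free brain held 4 human reads of MMP14, 15 of MMP16 and 8 of TIMP1, and the monolayer held 11 mouse reads of Timp2. The source of these reads was not tested.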

How the results depend on the processing

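Of 54 calls of members, 48 held under every alternative and 6 were lost under 1 or more (MMP10, MMP11 and TIMP1 against subcutaneous tumours, TIMP1 against the monolayer, TIMP2 between subcutaneous tumours and the monolayer, and Mmp28 between regions); of 62 values not called, 12 were called under 1 or more, and no called value changed sign. Of these 62 results not called, 21 changed sign under 1 or more alternatives, the Timp1 interaction (-0.224 with a pseudocount of 0.1) among them. Counted once per result and alternative, these changes of sign also came to 62. Between subcutaneous tumours and the monolayer 5 members were called, and 10 with voom on recovered reads. Between the metastases of the regions 0 were called, 1 with all groups in the fit and 0 to 1 on leaving out each library, TIMP1 being called without hindbrain replicate 3. Without the filter on low values 4 were called in forebrain (2 with it) and 4 in hindbrain (1 with it), and leaving out each library gave 1 to 2 in hindbrain. The causes were not tested, and a fit without the filter admits members of few reads. With the replicate block the 9 comparisons, in the order of the text, gave 9, 7, 7, 0, 2, 1, 0, 10 and 19 calls, and the block ended only the Mmp28 call (adjusted p from 0.0113 to 0.0832 over its 15 alternatives, limma) and, between subcutaneous tumours and the monolayer, where its fit also held only these groups, MMP11 and MMP17 were added, MMP11 also without the block. Over all genes, metastases of the regions gave 39 calls, 481 with all groups, 174 with voom and 10 without the filter, and the interaction gave 72, 174 with voom, 126 with quantile normalization and 30 without the filter. The share of higher calls in metastases against subcutaneous tumours was 62.4%, 48.8% with quantile normalization and 51.7% without the filter. For the interaction that share was 44.4%, 60.0% with the block and 56.7% without the filter, and between metastases 48.7%, 34.7% with the block and 70.0% without the filter. The interaction has no separate fit of only the groups compared. Depth limits low human members in metastases and low mouse members around subcutaneous tumours.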
